A study of Homo sapiens with 66 samples.

Results

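The MYC and MAX network was followed here through 8 genes, MYC, MAX, MXD1, MXD3, MXD4, MXI1, MNT and MLX, matched by symbol to the Ensembl identifiers of the deposited count files, 8 of 58051 genes in all. RNA was sequenced after removal of ribosomal RNA in 66 libraries that form 22 groups of 3, all of the colorectal cancer line DLD-1 or lines made from it. In the tagged lines the auxin-inducible degron (AID), which leads the cell to destroy its carrier protein once auxin is present, had been built into both copies of TPR (AID-NeonGreen-TPR), NUP153 (NUP153-NeonGreen-AID), NUP50 (NUP50-NeonGreen-AID), RANGAP1 (GAP1-NeonGreen-AID in the labels), NXF1 (AID-FLAG-NXF1) or the GANP gene MCM3AP (AID-HA-GANP1). Untreated cells of each line were set against the same cells with 1 mM auxin, for 2 h in AID-TPR, NUP153-AID, RANGAP1-AID and AID-NXF1 cells and for 3 h in NUP50-AID and AID-GANP cells, with later libraries after 8 h in AID-TPR, NUP153-AID and RANGAP1-AID cells and after 9 h in NUP50-AID cells. AID-TPR cells were also given Actinomycin D (ActD), an inhibitor of RNA polymerases, for 2 h, alone or with auxin, at a dose that is not given in the sources used here. Cells of the line labelled original, the DLD-1 cells without a tagged protein, were labelled untreated or auxin for 2 h.

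The tagged lines were picked as clones, and the ligase TIR1 that recognises the degron was inserted at the RCC1 locus, so an untreated tagged line differs from DLD-1 cells in more than the degron. The TIR1 construct carries Myc epitope tags, which are a short piece of the MYC protein, and whether any of its reads were counted on MYC was not tested. TPR, NUP153 and NUP50 form the basket on the nuclear side of the nuclear pore, RANGAP1 keeps the Ran cycle of nuclear transport going, and NXF1 and GANP act in mRNA export. AID-TPR libraries carry either plain replicate numbers (untreated and 2 h) or the numbers old1 to old3 (untreated, 2 h and 8 h), and the 2 sets are kept apart below as plain and old AID-TPR libraries. ActD libraries carry plain numbers and were set against untreated old AID-TPR libraries, which have the same kind of counts. That comparison thus spans differently labelled sets, and what old stands for is not given in the sources used here. The tag removes the protein, so the RNA of the tagged gene does not check its loss: after auxin only MCM3AP RNA reached an adjusted p under 0.05, with a log2 fold change of 0.26 in AID-GANP cells (adjusted p = 0.0197).

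MYC is a transcription factor of the basic helix-loop-helix leucine zipper class that binds DNA as a pair with MAX, mainly at the E-box CACGTG, and drives genes of ribosome production, metabolism and the cell cycle. The proteins MXD1, MXD3, MXD4, MXI1 and MNT pair with MAX too, bind the same sites and recruit SIN3 and histone deacetylases, so they act against MYC. MLX is the partner of MondoA (MLXIP) and ChREBP (MLXIPL), which sense glucose products, and it can also pair with some of the MXD proteins and with MNT. In colorectal cancer cells MYC is a known target of Wnt signalling, and both its RNA and its protein are short-lived.

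E-boxes are shown because they are the site the network itself reads. RefSeq promoters of 300 bases, 250 before and 50 after each start on GRCh38.p14, were matched for 7 of the 8 genes (10 promoters), with no entry for MYC. The palindrome CACGTG, which reads the same on both strands, stood in 3 of these 10 promoters and in 2548 of all 35116 RefSeq promoters of that length (7.256%). Each window below holds 30 bases on the strand of the gene, with the E-box in capitals.
MXD4, chr4:2262330-2262359, minus strand, E-box starting 238 bases before the start site: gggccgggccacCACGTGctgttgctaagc
MNT, chr17:2401236-2401265, minus strand, E-box starting 193 bases before the start site: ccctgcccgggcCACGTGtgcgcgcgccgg
MLX, chr17:42567038-42567067, plus strand, E-box starting 50 bases before the start site: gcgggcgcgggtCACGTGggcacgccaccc
These 3 genes did not move together: MXD4 and MNT are among the genes that fell in single comparisons below, and MLX passed in none of the edgeR fits to all 6 libraries of a comparison. A match of these letters does not show that a factor binds there, and the windows of MAX, MXD1, MXD3 and MXI1 only lacked these letters within 300 bases.

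By GENCODE release 44 on GRCh38, MYC lies at chr8:127735434-127742951, MAX at chr14:65006174-65102695 and MXD1 at chr2:69897688-69942945. MXD3 lies at chr5:177301461-177312757, MXD4 at chr4:2247432-2262109 and MXI1 at chr10:110207605-110287365. MNT lies at chr17:2384073-2401104 and MLX at chr17:42567072-42573239. Reads had been counted over exons of whole genes, so isoforms of a gene are not told apart.

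Library totals ranged from 18943661 to 55411411 counts, with a median of 32285399.5, and every member had at least 180 counts in each library, so all 8 passed the filter on low counts that left 17812 genes for the tests. Levels are given in CPM, a share of the library total, scaled by TMM over all 66 libraries, and fold changes come from edgeR fits to the 6 libraries of a comparison. A gene is said to have risen, fallen or passed where its adjusted p was under 0.05 and its fold 1.3 or above, or 0.7 or below, where the 10 genes that passed in DLD-1 cells were left out of the calls of the other auxin comparisons. The epithelial markers EPCAM (392 to 591 CPM) and CDX2 were present in every untreated group, while KRT20 was at 6.12 to 9.53 CPM in untreated AID-NXF1 libraries against 36.4 to 180.4 in the other lines, and VIL1 at 1.42 to 2.15 CPM in NUP50-AID libraries. Of 6 markers of blood, vessel and stroma cells, 5 were under the filter and at most 0.363 CPM in untreated libraries, and COL1A1 reached 1.75 CPM. Fewer cells of a type and less RNA per cell cannot be told apart in such bulk libraries.

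Several libraries stood apart or went against their labels. In the old AID-TPR set the library labelled auxin 2 h old2 had 866 genes more than 2-fold from the untreated mean, against 127 and 120 in the libraries old1 and old3 of that label, and the library labelled auxin 8 h old2 had 228, against 877 and 586. Over 12189 genes the changes in the library labelled 2 h old2 correlated at Pearson r = 0.948 with the mean of the other libraries labelled 8 h and at 0.663 with that of the others labelled 2 h, a description across genes that share the untreated libraries. CYP1A1, a gene induced through the aryl hydrocarbon receptor, was at 404, 47.3 and 334 CPM in the libraries labelled 2 h old1, old2 and old3 and at 91.3, 277 and 43.0 in those labelled 8 h. Labels were kept as given, and the main results of the old set are given with and without these libraries, a choice made after their values were seen. In the DLD-1 cells without a tagged protein, CYP1A1 was at 172 to 206 CPM in libraries labelled untreated and at 9.76 to 14.8 in those labelled auxin (log2 fold change -3.84, adjusted p = 8.2e-07), whereas it was higher after auxin in all 11 comparisons of tagged lines (log2 fold changes 1.14 to 6.68).

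The files also hold 3 kinds of counts. The 24 plain AID-TPR, AID-NXF1, AID-GANP and DLD-1 libraries have no mitochondrial counts, the 33 libraries of the NUP153-AID and NUP50-AID lines, old AID-TPR and ActD have them but lack counts on RMRP, and both are present in the 9 libraries of RANGAP1-AID cells. Genes with overlapping exons can share reads in the first kind and in RANGAP1-AID libraries. MXD3, whose exons overlap those of PRELID1 (24.2% of its exon bases, other strand) and RAB24 (19.5%, same strand), was at 114 to 133 CPM in the untreated means of the first kind, at 130 in RANGAP1-AID cells, and at 13.8 to 17.8 in the second kind. Between untreated plain and old AID-TPR libraries MXD3 differed 8.39-fold and MXD1 2.1-fold, against 0.599 to 1.05-fold for the other 6 genes. Levels of MXD3 are therefore compared only within one kind of counts, and its values outside the second kind are uncertain as measures of MXD3 alone.

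Without auxin, and leaving out MXD3 for its shared reads, MYC was the most abundant of the other 7 RNAs per exon length in every line but DLD-1. Untreated MYC means lay between 11.4 and 33.9 CPM per kb of exon, those of MLX between 11.5 and 14.4, those of MAX between 6.47 and 7.26, and those of MXD1, MXD4, MXI1 and MNT at 5.82 or below. In DLD-1 cells MYC (11.4 CPM per kb) and MLX (12.9 CPM per kb) were close. The length used is that of all annotated exons merged, 6109 bases for MYC and 4255 for MLX, not that of the transcripts present. The order depends on it: in CPM the mean of MYC in DLD-1 cells (69.9) was above the untreated MLX means of its kind of counts (54.8 to 61.1). MYC was at 62.0, 77.6 and 70.0 CPM in untreated DLD-1 libraries and at 75.0, 106 and 97.3 in AID-GANP libraries. It was at 119.7, 103 and 148 CPM in NUP50-AID, at 129, 139 and 121 in RANGAP1-AID, and at 137, 189 and 153 in AID-NXF1 libraries. Plain AID-TPR libraries held 126, 209 and 149.6 CPM, NUP153-AID libraries 142, 164 and 197, and old AID-TPR libraries 223, 182 and 217. In this order of means each line overlapped its neighbours, while the DLD-1 values lay below all those of the lines from NUP50-AID upwards.

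Some repressors were set at different levels from line to line before any treatment. MNT was at 5.78 to 9.67 CPM in untreated NUP153-AID and NUP50-AID libraries, and at 11.95 to 26.8 in all other untreated libraries. MXI1 was at 9.35 to 11.98 CPM in untreated AID-GANP and DLD-1 libraries and at 15.6 to 26.9 in the rest. These lines differ in clone and in part in the kind of counts. Untreated means of MNT ran from 7.72 to 22.1 CPM within the second kind of counts. Those of MXI1 ran from 9.58 to 17.6 CPM within the first kind. The cause was not tested, and no test was made between lines without auxin.

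**Figure D1:**
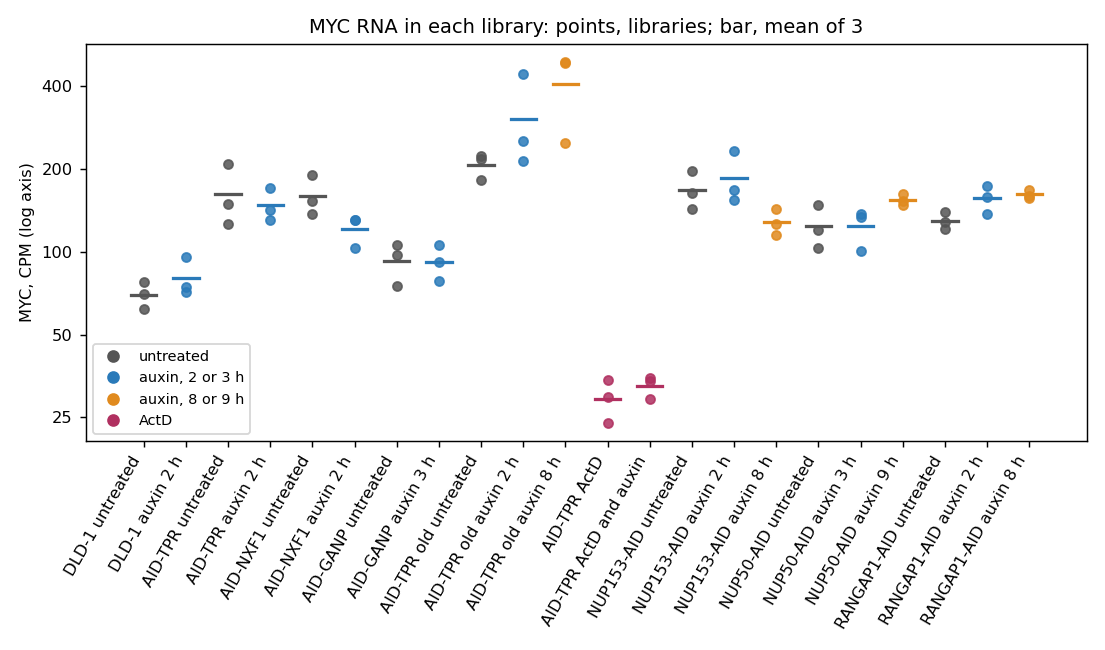
MYC RNA in CPM on a log axis for each of the 22 groups, with 1 point per library and a bar at the mean of 3, in grey for untreated cells, blue for 2 or 3 h and orange for 8 or 9 h of auxin, and purple for ActD. The 6 libraries with ActD (23.9 to 34.6 CPM) lie below all others, and the old AID-TPR libraries after auxin spread from 214 to 488 CPM.

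MYC RNA fell most where transcription was blocked. After 2 h of ActD it was at 23.9, 34.2 and 29.6 CPM, against 223, 182 and 217 in untreated old AID-TPR libraries, and the groups did not overlap. Its log2 fold change was -2.83 ± 0.14 (SE, n = 3 per group, edgeR, adjusted p = 1.1e-05), where 21.1% of tested genes passed, and no tested gene had a smaller p. A log2 change as low as this or lower was found for 142 of the 17812 tested genes (0.797%), and for 12 of the 6523 tested genes whose mean was 1000 counts or more. ActD blocks synthesis across the genome, and CPM gives a share of the RNA that is left, so genes that appear higher need not have gained RNA. With auxin added to ActD, MYC was at 29.2, 34.6 and 33.96 CPM, 0.15 ± 0.14 on the log2 scale above ActD alone. That comparison called 0 genes (0%) by edgeR, with 78 at an unadjusted p under 0.05, and 0 by DESeq2.

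Upon loss of TPR for 2 h, MYC did not pass in either set of libraries. In plain AID-TPR libraries it was at 130.1, 171 and 142 CPM after 2 h of auxin, within the untreated range, with a log2 fold change of -0.13 ± 0.16 (adjusted p = 0.843). In this comparison 85 genes passed (0.477%), none of them a member, and none of the 8 had an unadjusted p under 0.05. In old AID-TPR libraries labelled 2 h MYC was at 214, 441 and 253 CPM, a log2 fold change of 0.54 ± 0.23 (adjusted p = 0.395). The second of these is the library that stands apart, and without it the log2 fold change was 0.18 ± 0.13 (adjusted p = 0.861). Of all genes 0.444% passed there and 0 of the 8 members, with 3 members at an unadjusted p under 0.05 and 1 member, MXD3, passing by DESeq2. Without the library old2 0 members passed as well, among 0.679% of all genes. The difference between the plain and old changes of MYC was -0.66 ± 0.33 on the log2 scale and not past the threshold (adjusted p = 1), and it was -0.32 ± 0.24 without the library labelled 2 h old2. No gene passed that test of difference (0%), with 574 genes at an unadjusted p under 0.05 by edgeR.

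After 8 h of auxin MYC rose in old AID-TPR libraries. It was at 488, 249 and 484 CPM, each above the untreated libraries, and its log2 fold change was 0.95 ± 0.21 (adjusted p = 0.0434), where 3.59% of tested genes passed. The second value again belongs to the library that stands apart, and without it the log2 fold change was 1.19. The adjusted p was between 0.115 and 0.192 when any one of the other 5 libraries was left out (log2 fold changes 0.81 to 0.99), so the call needed each of them. Set against the libraries labelled 2 h, those labelled 8 h differed in no gene (0%, 48 at an unadjusted p under 0.05, 0 by DESeq2). Without both auxin libraries numbered old2, 832 genes passed in that comparison, and MYC was higher at 8 h by 1.02 on the log2 scale (adjusted p = 0.00618). That fit used only the libraries old1 and old3 of each label. Both old2 libraries were left out because their profiles went against their time labels, so the choice itself favoured a separation of the times. Its adjusted p is therefore no independent support for a rise from 2 h to 8 h.

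**Figure D2:**
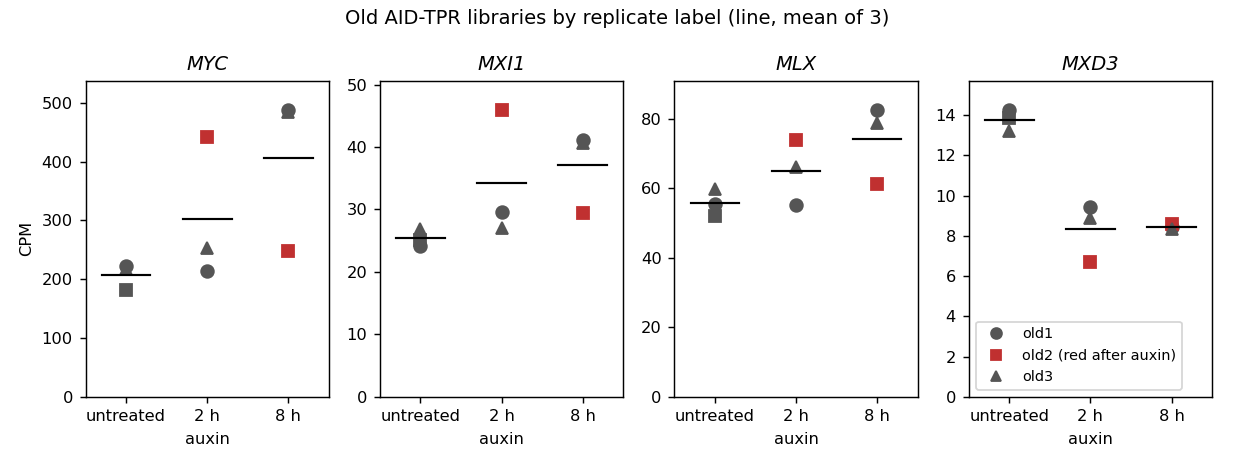
MYC, MXI1, MLX and MXD3 in old AID-TPR libraries, in CPM from 0, by labelled time of auxin, with 1 point per library, its shape for the replicate label and a line at the mean of 3. The auxin libraries numbered old2 are red: MYC was at 441 CPM in the one labelled 2 h and at 249 CPM in the one labelled 8 h, while MXD3 was below its controls in all 6 auxin libraries.

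In the other lines MYC passed in no comparison. After loss of RANGAP1 it was at 158, 138 and 173 CPM at 2 h and at 168, 159 and 157 at 8 h, against 129, 139 and 121 untreated. At 8 h its groups did not overlap and its log2 fold change of 0.31 ± 0.07 had an adjusted p of 0.00977, with a fold under the bound of 1.3. At 2 h the log2 fold change was 0.26 ± 0.10 (adjusted p = 0.52). With a replicate block, since replicate numbers paired the libraries there, the adjusted p was 0.00775 at 0.26, still under the bound of the fold. After 2 h without NXF1, MYC was at 104, 129.9 and 130.3 CPM against 137, 189 and 153, a log2 fold change of -0.42 ± 0.11 (adjusted p = 0.0218) that did not reach the bound of 0.7-fold; without the untreated library 1 it did (-0.52, adjusted p = 0.00714). In AID-GANP cells it was at 78.1, 105 and 91.4 CPM after auxin and 75.0, 106 and 97.3 before. There the log2 fold change was -0.03 ± 0.13.

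NUP153-AID cells held 167, 154 and 233 CPM of MYC at 2 h and 127, 115 and 143 at 8 h, against 142, 164 and 197 untreated, and neither time passed (adjusted p = 1 and 0.156). Cells without NUP50 held 100.3, 134 and 138 CPM at 3 h and 153, 161 and 148 at 9 h, against 119.7, 103 and 148 untreated, with log2 fold changes of 0.02 ± 0.14 and 0.31 ± 0.10 (adjusted p = 1 and 0.17). DLD-1 cells labelled auxin had 74.5, 95.6 and 71.4 CPM against 62.0, 77.6 and 70.0 (0.21 ± 0.11, adjusted p = 1). Of the 12 auxin comparisons MYC thus passed in 1, and its log2 fold change was above 0 in 8.

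MAX, the shared partner, passed in no comparison with a control. Over all 66 libraries it stayed between 32.9 and 55.8 CPM, ActD included, where it was at 40.9, 44.5 and 44.4 against 43.6, 39.9 and 40.6 (log2 fold change 0.06 ± 0.10). After 8 h without RANGAP1 it was at 52.5, 54.1 and 50.6 CPM against 43.4, 43.98 and 40.4, without overlap, and its log2 fold change of 0.29 ± 0.07 (adjusted p = 0.00993) was under the bound of the fold. FNTB, which overlaps 13.1% of the MAX exon bases on the other strand, rose by 0.565 on the log2 scale in the same comparison. Its part in the MAX values of RANGAP1-AID cells was not tested. MAX also stood above all controls at 3 h without NUP50 (53.1, 55.03 and 55.8 against 47.3, 39.04 and 46.0 CPM), at an adjusted p of 0.361.

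**Figure D3:**
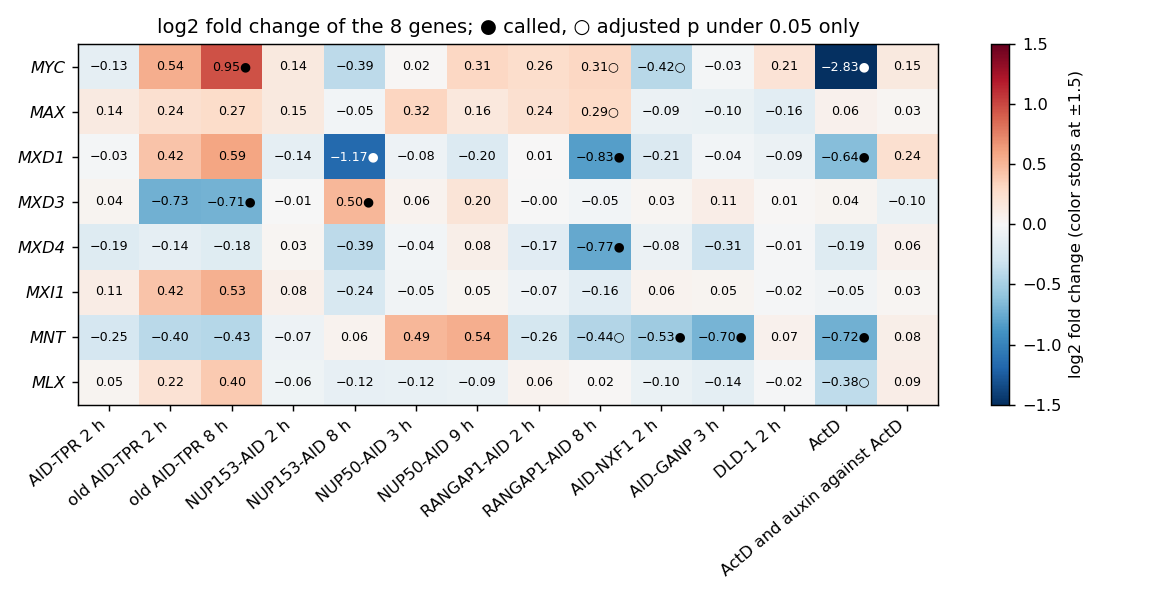
Log2 fold changes of the 8 genes (rows) in the 14 comparisons with a control (columns), as printed numbers on a red to blue scale that stops at 1.5 either way, with a filled circle where a gene passed and an open circle where only its adjusted p was under 0.05. MYC after ActD (-2.83) lies farthest from 0, and the next is MXD1 at 8 h without NUP153 (-1.17).

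Among the MAX-binding repressors, MXD1, MXD3 and MNT each passed in 2 of the 12 auxin comparisons, MXD4 in 1 and MXI1 in 0. In the comparisons with such a call 1.32% to 15.5% of all tested genes passed. MXD1, induced in many cells as they stop dividing and differentiate, fell in both lines in which transport factors other than TPR had been gone for 8 h. In NUP153-AID cells it was at 25.7, 19.5 and 32.2 CPM untreated, at 23.9, 17.0 and 29.3 after 2 h, and at 11.95, 10.4 and 12.1 after 8 h. Every library at 8 h was below every other library of that line. The log2 fold change at 8 h was -1.17 ± 0.17 (adjusted p = 0.0105), among 1.32% of genes that passed. The call was lost, at adjusted p of 0.0543 to 0.0697, without auxin library 2 (-1.10), auxin library 3 (-1.21) or untreated library 1 (-1.17). In RANGAP1-AID cells MXD1 was at 30.8, 30.8 and 34.9 CPM untreated, at 31.6, 31.4 and 34.6 after 2 h, and at 17.1, 16.9 and 20.5 after 8 h (-0.83 ± 0.10, adjusted p = 0.000217). There 14.8% of genes passed, and MXD1 passed under all 13 alternatives run. SNRNP27, which shares 3.73% of the MXD1 exon bases on the same strand, fell by 0.52 on the log2 scale in the same comparison, and its part in the MXD1 value was not tested. In NUP50-AID cells MXD1 was at 20.2, 18.4 and 19.6 CPM after 9 h against 21.2, 22.1 and 23.3, which did not pass (-0.20 ± 0.09, adjusted p = 0.274).

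In old AID-TPR libraries the MXD1 values lay the other way. They were 13.8, 17.9 and 19.4 CPM untreated, 18.2, 23.5 and 27.1 in libraries labelled 2 h and 20.98, 31.4 and 24.8 in those labelled 8 h, with a log2 fold change of 0.59 ± 0.21 at 8 h (adjusted p = 0.12, and 0.0486 by DESeq2). Without the libraries old2 it was 0.42 at 2 h (adjusted p = 0.685) and 0.39 at 8 h (adjusted p = 0.133). After ActD MXD1 was at 8.79, 15.1 and 9.26 CPM, and the groups overlapped. Its log2 fold change of -0.64 ± 0.21 passed (adjusted p = 0.0491), but not by RLE normalization (0.0521) nor without ActD library 1 (-0.51) or 3 (-0.53) or the untreated library old2 (-0.60) or old3 (-0.54).

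MXD3, the member of the family linked to cells in S phase, could be read as such only in the libraries of the second kind of counts, and there it moved in opposite directions. In old AID-TPR libraries it was at 14.3, 13.9 and 13.2 CPM untreated, at 9.44, 6.71 and 8.87 in the libraries labelled 2 h and at 8.45, 8.57 and 8.35 in those labelled 8 h. All 6 auxin libraries, those numbered old2 included, lay below the 3 controls. The fall passed at 8 h (-0.71 ± 0.15, adjusted p = 0.0395) and not at 2 h (-0.73 ± 0.18, adjusted p = 0.146, and -0.58, adjusted p = 0.156, without the library labelled 2 h old2). Without the auxin 8 h library old2 it remained past the threshold, and without any one of the other 5 it was not (-0.69 to -0.75, adjusted p = 0.103 to 0.181). In NUP153-AID cells MXD3 was at 17.3, 16.3 and 15.3 CPM untreated, 15.8, 15.7 and 17.0 after 2 h and 23.5, 24.7 and 20.95 after 8 h. This rise (0.50 ± 0.09, adjusted p = 0.0248) did not overlap the controls, but passed neither without auxin library 2 (0.45) or 3 (0.56) nor without untreated library 1 (0.55), 2 (0.50) or 3 (0.45), at adjusted p of 0.061 to 0.122. The overlapping genes PRELID1 and RAB24 passed in neither comparison. In the other kinds of counts MXD3 log2 fold changes lay between -0.05 and 0.11.

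MNT, the MAX partner that resides in cells whether or not they divide, fell upon loss of NXF1 and of GANP and after ActD. It was at 14.5, 18.0001 and 18.8 CPM in untreated AID-NXF1 libraries and at 10.8, 10.96 and 14.1 after auxin (-0.53 ± 0.13, adjusted p = 0.012, 8.12% of genes passing). It was at 14.1, 19.6 and 11.95 CPM in untreated AID-GANP libraries and at 9.31, 10.6 and 8.39 after auxin (-0.70 ± 0.17, adjusted p = 0.00972, 15.5% of genes passing). In both lines the groups did not overlap. The MNT call in AID-NXF1 cells was lost without auxin library 1 (-0.46) or 2 (-0.47) or untreated library 2 (-0.49) or 3 (-0.45), and in AID-GANP cells the fold went under the bound without untreated library 2 (-0.48, adjusted p = 0.0322). The antisense RNA ENSG00000262456, which overlaps 12.2% of the MNT exon bases, fell by 0.71 and 0.98 on the log2 scale in these comparisons and had a mean of 0 counts over the untreated libraries of the second kind. Reads of the 2 genes were not told apart here.

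After ActD MNT fell to 14.5, 11.7 and 14.0 CPM from 19.5, 19.96 and 26.8 (-0.72 ± 0.16, adjusted p = 0.00971). In RANGAP1-AID cells it was at 11.8, 12.2 and 13.4 CPM after 8 h against 16.5, 14.6 and 19.5, a log2 fold change of -0.44 ± 0.11 (adjusted p = 0.016) that stayed within the bound of 0.7-fold, and passed without untreated library 2 (-0.53). In NUP50-AID cells MNT lay above its controls at both times, at 11.4, 10.6 and 10.3 CPM after 3 h and 14.4, 10.3 and 9.12 after 9 h against 9.06, 7.34 and 6.77. Neither time passed (0.49 ± 0.14, adjusted p = 0.351, and 0.54 ± 0.17, adjusted p = 0.15), though 9 h did without untreated library 1 (0.67, adjusted p = 0.0496). In AID-TPR cells MNT did not pass, with log2 fold changes of -0.25 in plain libraries (adjusted p = 0.646), -0.40 in old libraries labelled 2 h (0.405) and -0.43 in those labelled 8 h (0.281). Without the libraries old2 these last values were -0.37 (0.686) and -0.22 (0.388).

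MXD4 fell after 8 h without RANGAP1, from 19.5, 17.2 and 22.1 CPM to 11.1, 10.7 and 12.8 (-0.77 ± 0.11, adjusted p = 0.000822), and passed there under all 13 alternatives. At 2 h the same line held 19.0, 14.5 and 19.1 CPM. After 8 h without NUP153 it was at 24.1, 17.1 and 15.5 CPM against 24.03, 21.1 and 29.2, and passed only without auxin library 1 (-0.61, adjusted p = 0.0343). By the edgeR fits to the 6 libraries of a comparison, MXI1 passed in none. Old AID-TPR libraries held 24.2, 25.04 and 26.9 CPM of MXI1 untreated, 29.5, 46.0 and 27.02 in the libraries labelled 2 h and 41.1, 29.5 and 40.7 in those labelled 8 h. At 8 h its log2 fold change was 0.53 ± 0.15 (adjusted p = 0.0732), and it passed without the library old2 (0.65, adjusted p = 0.00394). Without the one labelled 2 h it was 0.17 at 2 h (adjusted p = 0.884). With all libraries MXI1 passed at 8 h by DESeq2 (0.54, adjusted p = 0.0188). In 1 edgeR fit over 66 libraries it passed at 8 h (0.55, adjusted p = 0.00423) and at 2 h (0.43, adjusted p = 0.0427).

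**Figure D4:**
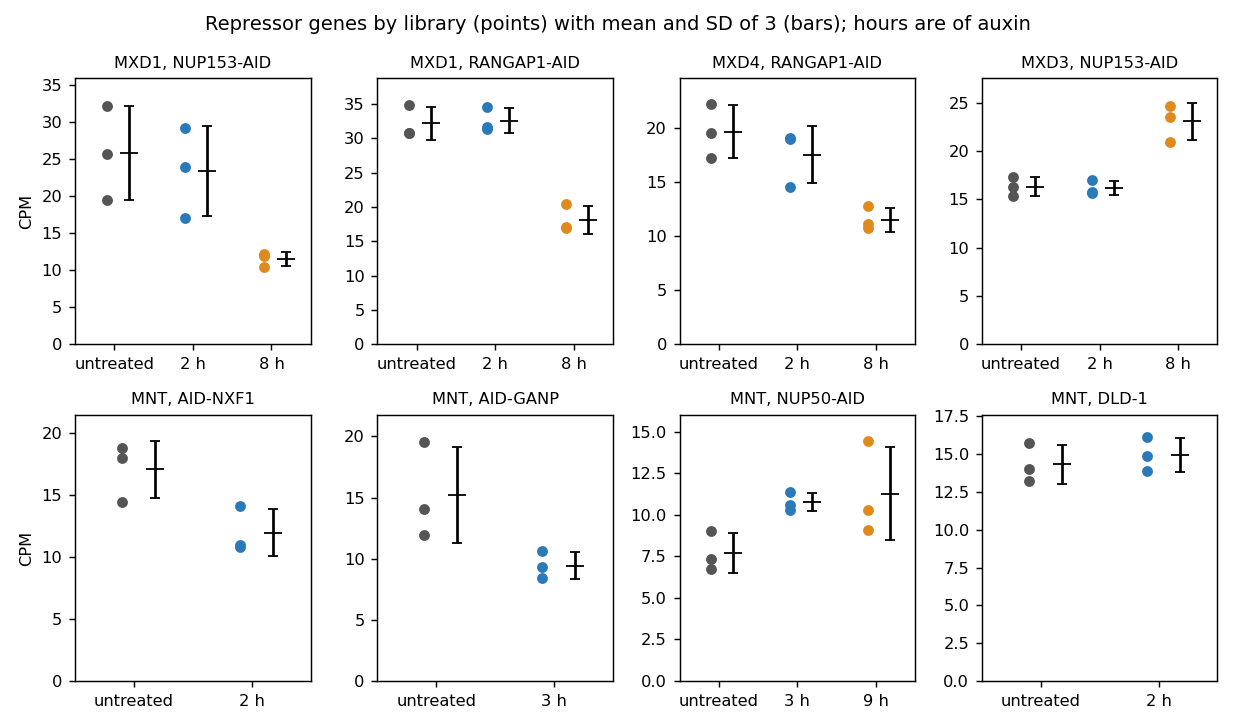
MXD1, MXD4, MXD3 and MNT in CPM from 0, by gene and line, with 1 point per library and bars for the mean and SD of 3, by hours of auxin. MXD1 in NUP153-AID cells was at 10.4 to 12.1 CPM after 8 h and at 19.5 to 32.2 without auxin, and MNT was lower after auxin in AID-NXF1 and AID-GANP cells, while its groups overlapped in DLD-1 cells.

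By the edgeR fits to the 6 libraries of a comparison, MLX passed in none. Old AID-TPR libraries held 55.4, 52.0 and 59.9 CPM of MLX untreated, 55.3, 73.9 and 66.1 in the libraries labelled 2 h and 82.6, 61.2 and 78.9 in those labelled 8 h (0.40 ± 0.13, adjusted p = 0.103). Without the 8 h library old2 it passed (0.50, adjusted p = 0.0107), and with all libraries it passed at 8 h in 1 edgeR fit over 66 libraries (0.41, adjusted p = 0.000237). After ActD it was at 38.7, 44.3 and 45.8 CPM, a log2 fold change of -0.38 ± 0.11 with an adjusted p of 0.0278 and a fold within the bound.

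TXNIP and ARRDC4, arrestin-related genes that limit glucose uptake and are direct targets of MondoA with MLX, rose after 8 h without RANGAP1, where MLX did not pass. In RANGAP1-AID cells TXNIP was at 9.81, 12.003 and 8.87 CPM untreated, 14.3, 15.0 and 9.29 after 2 h and 134, 145 and 94.0 after 8 h (log2 fold change at 8 h 3.603, adjusted p = 1.66e-06). ARRDC4 was at 6.96, 8.84 and 8.03 CPM untreated and 31.2, 26.6 and 25.98 after 8 h (1.81, adjusted p = 8.27e-06), while MLX held 65.7, 61.6 and 59.9 CPM against 65.4, 59.8 and 58.6. In old AID-TPR libraries TXNIP was at 47.1, 68.8 and 65.6 CPM untreated, at 53.7, 178 and 45.1 in the libraries labelled 2 h and at 168, 39.1 and 139 in those labelled 8 h. There neither gene passed at 8 h (0.90 for TXNIP and 1.081 for ARRDC4), and without the library old2 both did (1.3001 and 1.37). ARRDC4 fell by 0.90 on the log2 scale upon loss of NXF1 (adjusted p = 0.000443).

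In 8 of the 14 comparisons with a control no member passed by edgeR: plain and old AID-TPR at 2 h, NUP153-AID at 2 h, NUP50-AID at 3 and 9 h, RANGAP1-AID at 2 h, DLD-1, and auxin on top of ActD. Few genes of any kind passed in these, 0.0225% in NUP153-AID cells at 2 h, 0.18% and 0.365% in NUP50-AID cells, 0.545% in RANGAP1-AID cells at 2 h and 0.0561% in DLD-1 cells. At an unadjusted p under 0.05 stood 0 members in NUP153-AID cells at 2 h, 2 and 3 in NUP50-AID cells at 3 and 9 h, 2 in RANGAP1-AID cells at 2 h and 1 in DLD-1 cells. In the other 6 comparisons 1 to 3 of the 8 members passed, where the share of all genes ran from 1.32% in NUP153-AID cells at 8 h to 21.1% after ActD. In AID-GANP cells 1 of the 8 passed, with 15.5% of all genes. The median log2 fold change of the 8 was 0.33 at 8 h in old AID-TPR libraries and -0.29 after ActD, against a median of 0 over all tested genes in each.

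Comparing later with earlier libraries, MXD1 and MXD3 separated 8 h from 2 h without NUP153 (-1.04, adjusted p = 0.0107, and 0.50, adjusted p = 0.0156), where 1.95% of genes passed. MYC was lower at 8 h in that line without passing (-0.54, adjusted p = 0.075), and its groups did not overlap. In RANGAP1-AID cells MXD1 (-0.84, adjusted p = 0.000417) and MXD4 (-0.60, adjusted p = 0.00893) were lower at 8 h than at 2 h, among 8.8% of genes. In NUP50-AID cells no member passed between 3 h and 9 h, with 2 at an unadjusted p under 0.05 (0.258% of genes passed).

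Whether a member changed differently in one line than in another was tested by interaction terms at an adjusted p under 0.05 and any fold. No member differed between plain AID-TPR cells and NUP153-AID (0.646% of genes differing), NUP50-AID (0.124%), RANGAP1-AID (0.298%), AID-NXF1 (2.28%), AID-GANP (5.77%) or DLD-1 cells (0.825%), nor between AID-NXF1 and AID-GANP cells (2.62%), nor between the old AID-TPR change at 2 h and the change by auxin on top of ActD (0.0225%). Against DLD-1 cells, the change upon loss of NXF1 was lower for MYC (-0.63 ± 0.18, adjusted p = 0.0368) and MNT (-0.60 ± 0.17, adjusted p = 0.0347), where 9.71% of genes differed, and the change upon loss of GANP was lower for MNT (-0.76 ± 0.21, adjusted p = 0.0186), where 20.1% differed. DLD-1 libraries are the ones in which CYP1A1 went against the labels, and a table published with the study carries their treatment names the other way round. With their names exchanged, an alternative chosen after the values were seen, the differences were -0.21 for MYC (adjusted p = 0.506) and -0.46 (0.0903) and -0.63 (0.0454) for MNT. Leaving out single libraries left 0 to 2 members different between AID-NXF1 and DLD-1 cells, with edgeR adjusted p up to 0.113 for MYC and 0.0993 for MNT. Without the DLD-1 auxin library 2 the MNT difference of AID-GANP cells was -0.70 (adjusted p = 0.0533).

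A further 11 pairs of comparisons were tested because the libraries of a member lay on opposite sides of their controls, so their direction was known beforehand. Passing was favoured too, since the pairs were chosen and tested on the same libraries. The adjustment covers the genes but not the search over pairs, so these adjusted p values are given as a description only. The change of MXD1 at 8 h in old AID-TPR libraries was higher than in NUP153-AID cells by 1.77 ± 0.29 on the log2 scale (adjusted p = 0.00332), and that of MXD3 lower by 1.2 (-1.20 ± 0.15, adjusted p = 0.00097), with 10.2% of genes differing. Against RANGAP1-AID cells at 8 h the MXD1 difference was 1.42 ± 0.23 (adjusted p = 0.00197, 11.4% of genes differing). Against NUP50-AID cells at 9 h it was 0.79 ± 0.23 for MXD1 (adjusted p = 0.0486) and -0.91 ± 0.15 for MXD3 (adjusted p = 0.00521, 9.75% of genes differing). Without the library labelled 8 h old2 these 5 differences stayed past the threshold, at 1.57, -1.24, 1.22, 0.59 and -0.95 in the order given. In NUP50-AID cells, where MNT passed at neither time, its change at 3 h was higher by 1.01 ± 0.19 than in AID-NXF1 cells (adjusted p = 0.00342, 7.38% of genes differing). It was higher by 1.17 ± 0.23 than in AID-GANP cells (adjusted p = 0.00276, 13.7%). The MNT change at 9 h was higher by 1.01 ± 0.22 than at 8 h in RANGAP1-AID cells (adjusted p = 0.00847, 9.69%).

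The change of MAX was higher than in AID-NXF1 cells in NUP50-AID cells (0.40 ± 0.10, adjusted p = 0.0264) and in RANGAP1-AID cells at 2 h (0.33 ± 0.09, adjusted p = 0.0387, 8.14% of genes differing). Against DLD-1 cells the MAX differences of NUP50-AID (0.47) and RANGAP1-AID cells (0.41) did not pass (adjusted p = 0.104 and 0.102, with 0.46% and 0.893% of genes differing). The MNT difference between old AID-TPR at 2 h and NUP50-AID at 3 h was -0.90 and did not pass (adjusted p = 0.208, 0.174% of genes differing). The change of MXD3 was lower in old AID-TPR libraries labelled 2 h than in AID-GANP cells (-0.83 ± 0.16, adjusted p = 0.0388, 0.455% of genes differing, -0.72 without the library old2), across 2 kinds of counts. Where the kinds of counts differ between lines, as in the pairs with RANGAP1-AID, AID-NXF1, AID-GANP or DLD-1 cells, line and counting cannot be told apart.

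The share of MYC in the RNA of the MAX partners, per exon length, sets MYC against its repressors. It uses the merged length of all annotated exons of each gene, and its height depends on that choice. It had been planned over MYC, MXD1, MXD3, MXD4, MXI1 and MNT, and on that basis was 67.4 ± 4.0% (SD, n = 3) in untreated old AID-TPR libraries, 25.7 ± 4.6% after ActD and 77.9 ± 7.0% in old libraries labelled 8 h, and in RANGAP1-AID cells 34.6 ± 1.9% untreated and 43.0 ± 0.7% at 8 h. Because MXD3 shares reads in some kinds of counts, the values that follow leave it out, a choice made after its levels were seen. Without MXD3, MYC made up 71.5 ± 4.3% in untreated old AID-TPR libraries and 30.7 ± 5.2% after ActD, with no overlap (68.5 to 76.4% and 26.7 to 36.5%). In RANGAP1-AID cells it was at 62.5 ± 3.3% untreated, 67.9 ± 1.8% at 2 h and 75.5 ± 1.2% at 8 h, where the 8 h libraries (74.4 to 76.7%) lay above all others of the line. In old AID-TPR libraries labelled 8 h it was 79.7 ± 6.6%, from 72.1% in the library old2 to 84.1%. It was 66.7 ± 3.0% before and 62.9 ± 0.8% after loss of NXF1, 58.9 ± 3.3% and 61.1 ± 2.8% for GANP, and lowest of all untreated groups in DLD-1 cells (52.3 ± 2.2%). Shares were not tested, since a share moves with each of its parts.

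**Figure D5:**
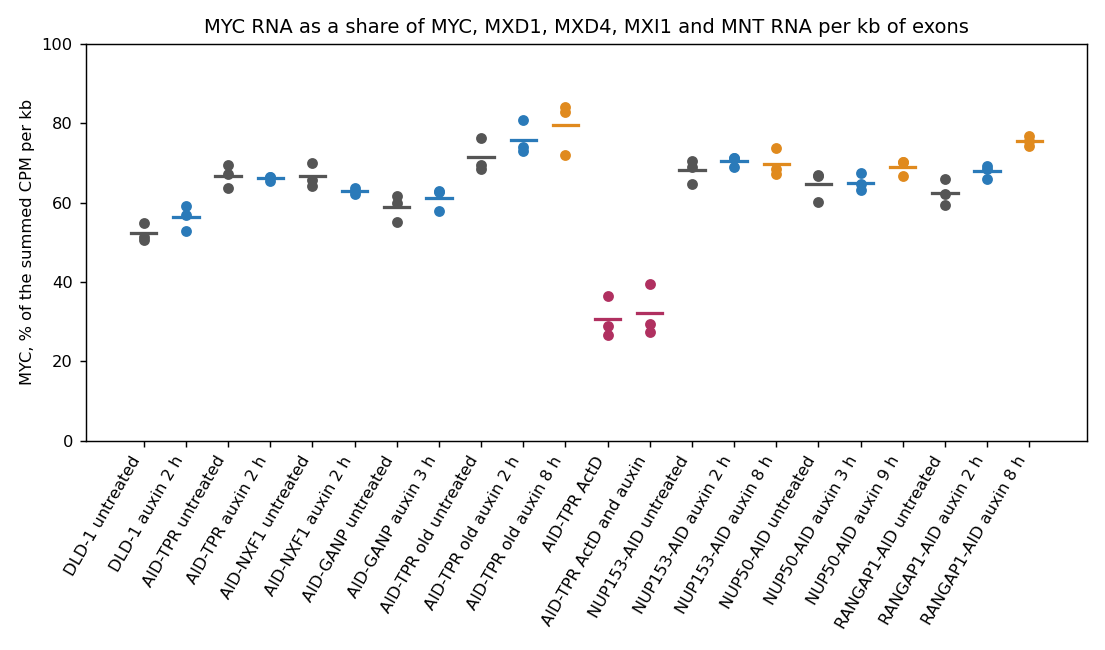
MYC as a percent of the summed RNA of MYC, MXD1, MXD4, MXI1 and MNT (CPM per kb of exon), with 1 point per library and a bar at the mean of 3 in each of the 22 groups. ActD libraries lie at 26.7 to 36.5% and the RANGAP1-AID libraries at 8 h at 74.4 to 76.7%.

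Other genes of the pathway were taken from lists written down with earlier results of these data known. Of 37 genes known to be activated by MYC, all tested, 9 rose and 0 fell after 8 h without RANGAP1 (median log2 fold change 0.16, against -0.007 over all genes), where 14.8% of all genes passed (1466 higher and 1179 lower). The largest rises were in TERT, the telomerase subunit (0.97), the amino acid transporter gene SLC7A5 (0.80) and NIP7, of ribosome assembly (0.77). In old AID-TPR libraries at 8 h 2 rose (NIP7 0.55 and the transferrin receptor TFRC 0.42) and 1 fell (RRS1 -1.02), with a median of 0.28 against 0. There 3.59% of all genes passed. Without the library old2 the same list had 17 higher and 2 lower and a median of 0.39, when 21% of all genes passed. After ActD 6 were higher and 3 lower, with EIF4A1 lowest (-2.05), where 21.1% of all genes passed (1565 higher and 2194 lower). NUP50-AID cells had TERT (1.60 and 1.18) and SLC7A5 (0.56 and 0.43) higher at 3 and 9 h, beside 0.18% and 0.365% of all genes. TERT also rose upon loss of NXF1 (1.03) and GANP (1.11), where RRS1 fell (-1.16) and SLC7A5 (0.45) and HK2 (0.43) rose, and UBTF rose at 8 h without NUP153 (0.40). Of all genes 8.12% passed upon loss of NXF1, 15.5% upon loss of GANP and 1.32% at 8 h without NUP153. None of the 37 passed in plain or old AID-TPR libraries at 2 h, NUP153-AID and RANGAP1-AID cells at 2 h, DLD-1 cells, or with auxin on top of ActD.

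Of 8 genes known to be repressed by MYC, 3 rose after 8 h without RANGAP1: the growth arrest gene GADD45A (1.39), the differentiation factor CEBPA (0.79) and the cell cycle inhibitor CDKN1B (0.55), beside 14.8% of all genes. Only 3 of the 8 lay above 0 there, and the median log2 fold change of the list was -0.15, against -0.007 over all genes. CDKN1B (0.97) and GADD45A (0.94) had risen there at 2 h, beside 0.545% of all genes. CDKN1A (-1.10) and CEBPA (-0.71) fell upon loss of NXF1, where 8.12% of all genes passed. Upon loss of GANP CDKN1A (-0.77), CDKN2B (-0.94) and CEBPA (-1.87) fell and GADD45A rose (0.57), beside 15.5% of all genes. After ActD CDKN1B (-1.32), CEBPA (-1.28) and GADD45A (-0.83) fell, and at 8 h in old AID-TPR libraries GADD45A rose (0.80). Of all genes 21.1% passed after ActD and 3.59% at 8 h in old AID-TPR libraries. Without the library old2 GADD45A (0.86) was higher and CDKN2B (-1.10) lower there. At 2 h in old AID-TPR libraries no gene of these lists passed, with the library old2 or without it. The genes activated and those repressed by MYC thus had single members that rose in the same comparisons, though the median of the repressed list was below 0 at 8 h without RANGAP1.

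Of 20 MYC cofactors and turnover factors, all tested, no more than 2 passed in any one comparison with all libraries. WDR5, which anchors MYC on chromatin, rose (0.43) and AURKA, a mitotic kinase that stabilises MYC proteins, fell (-0.61) after 8 h without RANGAP1, and RUVBL1 (0.43) and CIP2A (0.54) were higher after ActD. In these comparisons 14.8% and 21.1% of all genes passed, in that order. At 8 h in old AID-TPR libraries 0 passed, and without the library old2 5 were higher, led by SIN3A (0.72), and 1 was lower, when 21% of all genes passed. Among the 5 partner genes left out of the 8, MYCL fell after 8 h without RANGAP1 (-0.55), upon loss of GANP (-0.83) and after ActD (-1.39). The shares of all genes that passed there were 14.8%, 15.5% and 21.1%. MLXIPL fell upon loss of GANP (-1.53), and MYCN (-2.71) and MLXIP (-1.08) fell after ActD. Of these, MLXIPL and MYCN were at low levels. The mean of MLXIPL was 0.567 CPM in untreated AID-GANP libraries and 0.198 after auxin. That of MYCN was 1.66 CPM in untreated old AID-TPR libraries and 0.258 after ActD. Of the 5 partner genes, 0 passed at 8 h in old AID-TPR libraries and 3 were lower without the library old2 (MYCL -1.3025, MLXIP -0.86 and MLXIPL -2.85), beside the same 21% of all genes. MLXIPL was low there too, with a mean of 2.22 CPM in untreated old AID-TPR libraries. MYCN rose after 8 h without RANGAP1 (0.76) from a low level, 0.765 to 1.102 CPM to 1.12 to 1.89. Of the long noncoding RNAs next to MYC only PVT1 could be tested, and it rose upon loss of NXF1 (0.65, adjusted p = 0.000192) while MYC in the same libraries had a log2 fold change of -0.42. CASC11 and CCAT1 were under the filter.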

How the data were processed

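Per the labels, the authors' processing notes name CASAVA 1.8.2, STAR 2.6.1c, featureCounts 1.5.2 and the build GRCh38. The deposited files hold whole-number read counts for 58051 Ensembl genes in each of 66 libraries, not normalized, from independent biological replicates by the study's methods. Symbols from GENCODE release 44 matched 56948 identifiers and did not match 1103. Genes were tested where CPM exceeded 1 in at least 4 of the 60 libraries without ActD, which left 17812 genes holding at least 99.76% of the counts of each library. Library totals are given with the results, and their size sets the counting error of each value.

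Each comparison was fitted to its 6 libraries in edgeR 4.0.16 (R 4.3.3, limma 3.58.1) with TMM, glmQLFit and glmQLFTest and Benjamini-Hochberg adjustment over all tested genes, with no block. Alternatives were RLE, library totals alone, no filter, filterByExpr, DESeq2 1.42.0, a replicate block, 1 fit over all 66 libraries and each library left out in turn. The test was checked on simulated counts. Same-numbered libraries deviated together, with every correlation of residuals over 0.1, in 7 of 13 comparisons: plain AID-TPR, NUP153-AID at 2 h, RANGAP1-AID at both times, AID-NXF1, AID-GANP and auxin on top of ActD. In these the data, not the labels, are the source of the pairing.

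The members and lists were chosen with earlier results of these data known. Named were the 8 members, the tagged genes as a check, TXNIP and ARRDC4, and from each list at most the 3 genes with the largest change in each direction among those that passed. A further part of the rule, genes with a pattern like that of a member called in at least 3 auxin comparisons, named none. Overlapping genes, CYP1A1 and PVT1 were named after their values were seen. Results of some genes of the lists are not reported here. Tables and figures were made in Python 3.11.15 with pandas 2.3.3 and matplotlib 3.10.9.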

Additional observations from a re-analysis of the deposited data

Results flagged for a closer look

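These differences between lines passed the interaction test in edgeR, as first change minus second change on the log2 scale. Upon loss of NXF1 against auxin in DLD-1 cells they were -0.63 for MYC and -0.60 for MNT, and upon loss of GANP against DLD-1 cells -0.76 for MNT. Each of these 3 was lost without the DLD-1 auxin library 2. Both differences of AID-NXF1 cells were also lost without AID-NXF1 auxin library 1 or 2, AID-NXF1 untreated library 2 or 3, or DLD-1 untreated library 1. With the DLD-1 names exchanged they were -0.21 for MYC (edgeR adjusted p = 0.506) and -0.46 for MNT (0.0903), past the threshold in neither. For old AID-TPR libraries labelled 8 h, MXD1 differed by 1.77 from NUP153-AID, by 1.42 from RANGAP1-AID and by 0.79 from NUP50-AID cells, and MXD3 by -1.20 from NUP153-AID and -0.91 from NUP50-AID cells. For old libraries labelled 2 h, MXD3 differed by -0.83 from AID-GANP cells. For NUP50-AID cells at 3 h, MNT differed by 1.01 from AID-NXF1 and 1.17 from AID-GANP cells and MAX by 0.40 from AID-NXF1 cells, and at 9 h MNT differed by 1.01 from RANGAP1-AID cells at 8 h. For RANGAP1-AID cells at 2 h, MAX differed by 0.33 from AID-NXF1 cells. All but the 3 with DLD-1 cells were tested because of the values seen, which favoured their passing.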

How the results depend on the processing

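The ActD fall of MYC and MNT and the fall of MXD1 and MXD4 after 8 h without RANGAP1 passed under every alternative run, and the cause of the changes that follow was not tested. Leaving out each library in turn, the log2 fold change of MYC ran from -0.28 to 0.094 in plain AID-TPR cells, -0.061 to 0.27 in NUP153-AID cells at 2 h, -0.10 to 0.16 in NUP50-AID cells at 3 h, -0.14 to 0.079 in AID-GANP cells, 0.81 to 1.19 in old AID-TPR libraries at 8 h and -0.52 to -0.28 in AID-NXF1 cells. In the same way the members that passed ran from 0 to 4 in old AID-TPR at 8 h, 0 to 3 in NUP153-AID at 8 h, 0 to 1 in NUP50-AID at 9 h, 0 to 2 in AID-NXF1 and 0 to 1 in AID-GANP cells, from 0 to 2 between 8 h and 2 h in NUP153-AID and 1 to 2 in RANGAP1-AID cells, and from 0 to 2 and 0 to 1 in the differences of AID-NXF1 and AID-GANP from DLD-1 cells. The 4 in old AID-TPR at 8 h stood beside 3733 of 17812 genes (21%), and the 3 in NUP153-AID beside 447. In these fits 1198 to 1575 genes passed in AID-NXF1 and 2389 to 2717 in AID-GANP cells. With DESeq2, MYC was past an adjusted p of 0.05 in NUP153-AID cells at 8 h (-0.39) and no longer in AID-NXF1 cells (-0.41), and 1 and 4 members passed in old AID-TPR libraries at 2 and 8 h. Without a filter MYC was past it in old AID-TPR at 2 h (0.57), NUP153-AID at 8 h (-0.41) and NUP50-AID at 9 h (0.30), with 2 members passing in the first and 1 in the last. In 1 fit over 66 libraries MYC was no longer past it in RANGAP1-AID cells at 8 h (0.31) and AID-NXF1 cells (-0.40), and 2, 5 and 0 members passed in old AID-TPR at 2 h, at 8 h and AID-NXF1 cells. At any fold 5 members passed at 8 h without RANGAP1 (4745 genes in all) and 2 without NXF1 (3829 genes). With DESeq2 413 and 1894 genes in all passed in old AID-TPR at 2 and 8 h. In 1 fit 1756 and 3377 passed there, and 1110 in AID-NXF1 cells. Without a filter 812 passed in old AID-TPR at 2 h and 353 in NUP50-AID at 9 h. Without both auxin libraries numbered old2, a choice that favoured a separation of the times, 1 member differed between 8 h and 2 h in old AID-TPR. With DLD-1 names exchanged 0 members differed from AID-NXF1 cells.

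With a replicate block MYC was past an adjusted p of 0.05 in RANGAP1-AID cells at 2 h (0.26), NUP50-AID cells at 9 h (0.32) and DLD-1 cells (0.20). The members that passed with the block were 1 each in NUP153-AID cells at 8 h (where MXD3 no longer passed, at 0.50) and in NUP50-AID cells at 3 and 9 h, 3 in old AID-TPR at 8 h, and 3 in the difference of AID-GANP from DLD-1 cells. The block moved the genes that passed from 85 to 389 in plain AID-TPR, 79 to 278 and 639 to 1667 in old AID-TPR at 2 and 8 h, 4 to 105 and 235 to 69 in NUP153-AID, 32 to 159 and 65 to 512 in NUP50-AID, 97 to 427 in RANGAP1-AID at 2 h, and 10 to 48 in DLD-1 cells. DESeq2 passed 193, 413, 1894, 38, 388, 92, 170, 176 and 24 genes in these 9 comparisons in that order, and no filter 262, 812, 1854, 76, 755, 189, 353, 342 and 52. One fit passed 156, 1756, 3377, 7, 413 and 55 in the first 6, and 5 in DLD-1 cells. Library totals alone passed 1069 in old AID-TPR at 8 h and 1 in NUP153-AID at 2 h, where 7 passed with the DLD-1 genes kept. At any fold 4745 passed in RANGAP1-AID at 8 h, 3829 in AID-NXF1 and 5144 in AID-GANP cells. Leaving out a library gave 19 to 57 in plain AID-TPR, 0 to 121 and 5 to 3733 in old AID-TPR at 2 and 8 h, 1 to 3 and 16 to 447 in NUP153-AID, 7 to 64 and 1 to 444 in NUP50-AID, 33 to 88 in RANGAP1-AID at 2 h and 7 to 19 in DLD-1 cells.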
